A study of Rattus norvegicus with 12 samples.

Results

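miR-26a and miR-26b form a small microRNA family whose members were read from small RNA libraries of rat gastric mucosa. A row belonged to the family when its name, without the species prefix and the arm ending, was miR-26a or miR-26b. This gave 4 of the 648 mature miRNAs measured, rno-miR-26a-5p, rno-miR-26b-5p, rno-miR-26a-3p and rno-miR-26b-3p, written here without the prefix. There were 3 groups of 4 libraries. The XLHZ group was exposed for 24 weeks to MNNG (the alkylating mutagen N-methyl-N'-nitro-N-nitrosoguanidine) and treated for 60 days with Xianglianhuazhuo, a herbal formula. The model group had 24 weeks of MNNG and no formula. The normal group had neither. Exposed rats drank MNNG at 180 µg/ml, received gavages of 2% sodium salicylate, and were fed for 2 days and fasted for 1 day in turn, a regimen meant to induce chronic atrophic gastritis. Strain, sex and age are not given in the labels, and the labels do not say whether each library is a different rat. P-values therefore measure the spread between libraries, which may be technical.

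A hairpin precursor is cut to a duplex, and usually 1 strand, the guide, is kept in the silencing complex, where bases 2 to 8, the seed, pair with target mRNAs. The miR-26 guides are the 5p arms. They are known for high levels in most differentiated tissues, for repression of Ezh2, the methyltransferase of the Polycomb complex, and for lower levels in many tumours. The hairpins lie in genes of the Ctdsp family of small phosphatases, which act on RNA polymerase II and the retinoblastoma protein, and in mammals host gene and miRNA are known to be expressed together.

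The mature sequences are shown because the family is defined by its seed, marked in capitals (bases 2 to 8, counted from the 5′ end). They come from RefSeq, build GRCr8, in which all 4 names were matched, as were 587 of the 648 measured names.
miR-26a-5p: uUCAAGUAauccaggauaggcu
miR-26b-5p: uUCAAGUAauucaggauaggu
miR-26a-3p: cCUAUUCUugguuacuugcac
miR-26b-3p: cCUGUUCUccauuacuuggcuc
The guides miR-26a-5p (chr8:127633063-127633084, plus strand) and miR-26b-5p (chr9:83425723-83425743, plus strand) share the seed UCAAGUA, whose complement in a target gene reads TACTTGA. No other mature miRNA of the RefSeq table had this seed. The guides differ outside the seed, by C11U and C21U relative to miR-26a-5p, and in length, with 22 and 21 bases. How reads were assigned is not stated in any source used here, so reads shared between such similar guides could have been split, and their separate levels are uncertain to that extent. The minor arms differ within the seed (A4G relative to miR-26a-3p), so they do not share targets by seed.

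The hairpins are shown to place both arms, in capitals, with the 5p arm first.
Mir26a: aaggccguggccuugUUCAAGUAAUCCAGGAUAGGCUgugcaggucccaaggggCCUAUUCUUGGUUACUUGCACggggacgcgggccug
Mir26b: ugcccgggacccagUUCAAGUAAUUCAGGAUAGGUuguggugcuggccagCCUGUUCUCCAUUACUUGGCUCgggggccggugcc
In GRCr8 the Mir26a hairpin (chr8:127633048-127633137, 90 bases) lies within the span of Ctdspl, and the Mir26b hairpin (chr9:83425709-83425793, 85 bases) within that of Ctdsp1. The files name no build, and these positions are those of RefSeq. The arms of a hairpin are made together. An arm ratio therefore compares the strands of 1 precursor only where no other hairpin yields the same guide.

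The libraries held 9095260 to 11556061 counts each. Epithelial markers were present in all, with the 5 members of the miR-200 family summing to 44980.0 to 96208.2 CPM (counts in a library scaled to a fixed total), but the most abundant miRNA in every library was miR-143-3p, known from smooth muscle, at 9.39% to 29.2% of counts. Model libraries 2 and 3 had the highest miR-143-3p shares, 29.2% and 25.1%. In bulk tissue, fewer cells of a type and less RNA per cell cannot be told apart.

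miR-26a-5p was the second most abundant miRNA of the series, with a mean of 56439.6 CPM over the 12 libraries, and miR-26b-5p stood at rank 36 with 6006.75 CPM. miR-26a-5p held rank 2 in 6 libraries and rank 3 in the other 6. Above it stood miR-143-3p in every library, and where it held rank 3 also let-7f-5p (5 libraries) or miR-21-5p (model library 3). The next were guides of the let-7 family, which restrains growth and stem cell programmes, with 55974.8 CPM for let-7f-5p, 49033.7 CPM for let-7a-5p and 44462.6 CPM for let-7c-5p. miR-26a-5p alone made up 88.9% to 91.4% of the counts of its family.

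In raw counts miR-26a-5p had 590380, 577728, 563941 and 634667 in XLHZ libraries 1 to 4. In model libraries 1 to 4 it had 578528, 597333, 527594 and 580641, and in normal libraries 1 to 4 it had 567810, 681301, 601620 and 690532. The model library counts of all 4 members were the same in the 2 deposited tables. As a share of all mature miRNA counts, miR-26a-5p took 6.49%, 5.32%, 5.30% and 5.83% in XLHZ, 5.83%, 5.45%, 4.61% and 5.45% in model, and 5.67%, 5.90%, 5.68% and 6.19% in normal libraries. The lowest share was that of model library 3 and the highest that of XLHZ library 1, so the extremes lay in different groups and all groups overlapped. At this depth counting error is small: the widest 95% Wilson interval of a share was 6.48% to 6.51%, in XLHZ library 1, and such intervals cover counting error only.

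miR-26b-5p, the less abundant guide, had 61976, 63319, 66129 and 65104 counts in XLHZ libraries 1 to 4. It had 59102, 60852, 49408 and 72471 in model libraries 1 to 4, and 61675, 74839, 61194 and 69061 in normal libraries 1 to 4. Its share was 0.681%, 0.583%, 0.622% and 0.598% in XLHZ, 0.595%, 0.556%, 0.432% and 0.680% in model, and 0.616%, 0.648%, 0.578% and 0.619% in normal libraries. The model group held nearly the whole range of this guide, with library 3 lowest of the 12 and library 4 just under the highest, XLHZ library 1.

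**Figure D1:**
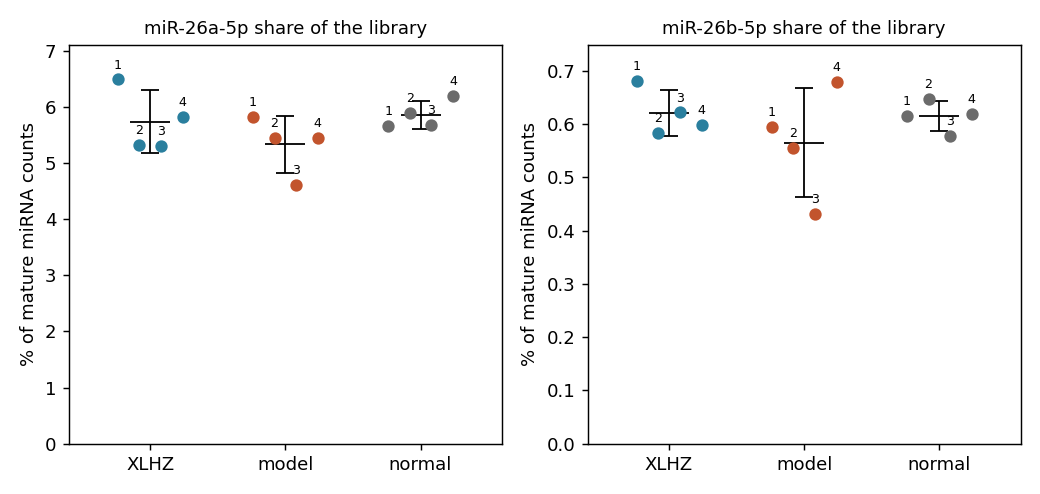
Share of all mature miRNA counts (%, linear axis from 0) of miR-26a-5p (left) and miR-26b-5p (right) in each library, with points numbered by replicate and bars giving mean ± SD of 4 libraries per group. Model library 3 is the lowest point in both panels, at 4.61% and 0.432%, and the groups overlap.

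The minor arms were rare. miR-26b-3p had 177, 181, 224 and 206 counts in XLHZ libraries 1 to 4, 199, 171, 183 and 251 in model libraries 1 to 4, and 195, 221, 227 and 207 in normal libraries 1 to 4. miR-26a-3p had 7, 11, 17 and 11 counts in XLHZ, 14, 9, 5 and 25 in model, and 7, 16, 14 and 21 in normal libraries. The passenger of the more abundant guide was thus the rarest member, at rank 388 of 648 against rank 251 for miR-26b-3p. Per 1000 counts of miR-26b-5p there were 3.07 ± 0.258 counts of miR-26b-3p in XLHZ, 3.34 ± 0.378 in model and 3.21 ± 0.348 in normal libraries (SD, n = 4 each). Per 100000 counts of miR-26a-5p there were 1.96 ± 0.767 counts of miR-26a-3p in XLHZ, 2.29 ± 1.47 in model and 2.24 ± 0.747 in normal libraries (SD, n = 4 each). For miR-26a-3p counting error was wide: the exact 95% Poisson interval ran from 1.62 to 11.7 around the 5 counts of model library 3 and from 16.2 to 36.9 around the 25 counts of model library 4. For miR-26b-3p it ran from 146 to 199 around the 171 counts of model library 2, the lowest of the 12, and from 221 to 284 around the 251 of model library 4, the highest.

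The first comparison asked whether the family differed between model and normal mucosa. For neither guide was a difference beyond the spread between libraries detected. On CPM scaled by trimmed mean of M-values (TMM) factors, which align most miRNAs between libraries, miR-26a-5p averaged 57164.1 ± 6640.3 in model and 57159.6 ± 2880.9 in normal libraries (SD, n = 4 each). edgeR's quasi-likelihood test gave a log2 fold change of -0.0037 (SE 0.10, Benjamini-Hochberg adjusted p = 0.987) for model against normal, with a 95% interval of 0.850-fold to 1.17-fold. miR-26b-5p averaged 5992.98 ± 564.5 CPM in model and 6010.02 ± 510.6 CPM in normal libraries, with a log2 fold change of -0.0074 (edgeR adjusted p = 0.987, SE 0.12) and an interval of 0.821-fold to 1.21-fold. The signs of such small values turn with the scaling, and on library totals alone, where the median of all miRNAs was -0.12, they were -0.14 and -0.12.

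The minor arms showed no difference beyond their spread either. miR-26b-3p had a log2 fold change of 0.046 (edgeR adjusted p = 0.937, SE 0.17). miR-26a-3p had one of -0.014 with an interval of 0.490-fold to 2.00-fold (adjusted p = 0.987, edgeR), so differences approaching 2-fold are not excluded at 5 to 25 counts a library. All 4 members passed the filter on low counts and 0 of 4 were called by edgeR, against 0.248% of the 403 miRNAs tested. The 2 groups overlapped for all 4 members, and 3.47% of the 403 miRNAs had groups that did not overlap. None of the 4 had an unadjusted p under 0.05 in edgeR, DESeq2 or limma-trend, against 7.2% of the 403 in edgeR. The 1 call in this comparison, miR-20a-3p, the minor arm of a miRNA linked to proliferation, had a log2 fold change of 6.38. For the similarly named miR-20b-3p, model counts differed between the deposited tables. Model libraries 1 to 4 had 5, 2, 0 and 0 beside normal libraries, and 251, 152, 1003 and 254 beside XLHZ libraries. What this means for miR-20a-3p was not tested.

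The second comparison set formula-treated against untreated mucosa, all of it exposed to MNNG. No difference of the guides beyond the spread was detected here either. miR-26a-5p averaged 54829.7 ± 2086.4 TMM-scaled CPM in XLHZ and 57164.1 ± 6640.3 in model libraries (SD, n = 4 each), with a log2 fold change of -0.079 (edgeR adjusted p = 0.824, SE 0.10) and an interval of 0.809-fold to 1.11-fold. The 4 XLHZ values lay between 52473.8 and 57093.3, inside the model range of 49073.9 to 65276.7. miR-26b-5p averaged 5949.46 ± 296.8 in XLHZ and 5992.98 ± 564.5 in model libraries, with a log2 fold change of -0.029 (edgeR adjusted p = 0.955, SE 0.12) and an interval of 0.817-fold to 1.18-fold. On library totals alone, where the miRNAs tested had a median of 0.17, the log2 fold changes were 0.11 for miR-26a-5p and 0.14 for miR-26b-5p.

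Of the minor arms, miR-26b-3p had a log2 fold change of -0.14 (edgeR adjusted p = 0.824, SE 0.16) in XLHZ against model mucosa, and miR-26a-3p had one of -0.28 (adjusted p = 0.901, SE 0.45). In this comparison 0 of 4 members were called by edgeR, against 0.249% of 402 miRNAs. The groups overlapped for all 4, while 1.25% of miRNAs had groups that did not overlap. None of the 4 had an unadjusted p under 0.05 by any of the 3 tools, against 4.23% of the 402 in edgeR. The 1 call was miR-320-3p, known as a Drosha-independent miRNA, whose log2 fold change was 2.00.

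The last comparison set formula-treated, MNNG-exposed mucosa against normal mucosa. miR-26a-5p averaged 54829.7 ± 2086.4 in XLHZ and 57159.6 ± 2880.9 TMM-scaled CPM in normal libraries (SD, n = 4 each), a log2 fold change of -0.091 (edgeR adjusted p = 0.639, SE 0.059) with an interval of 0.857-fold to 1.03-fold. This was the narrowest interval of the 3 comparisons for this guide. miR-26b-5p had a log2 fold change of -0.046 (edgeR adjusted p = 0.846, SE 0.079) and an interval of 0.856-fold to 1.10-fold. The minor arms miR-26b-3p and miR-26a-3p had log2 fold changes of -0.10 (adjusted p = 0.809, SE 0.13) and -0.31 (adjusted p = 0.782, SE 0.37) in the same fit. Again 0 of 4 members were called by edgeR, against 1.5% of 401 miRNAs. The groups overlapped for all 4, while 6.23% of miRNAs had groups that did not overlap. None of the 4 had an unadjusted p under 0.05 by any of the 3 tools, against 8.73% of the 401 in edgeR. The XLHZ libraries enter this and the preceding comparison, and the normal libraries this and the first, so the values are not independent.

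**Figure D2:**
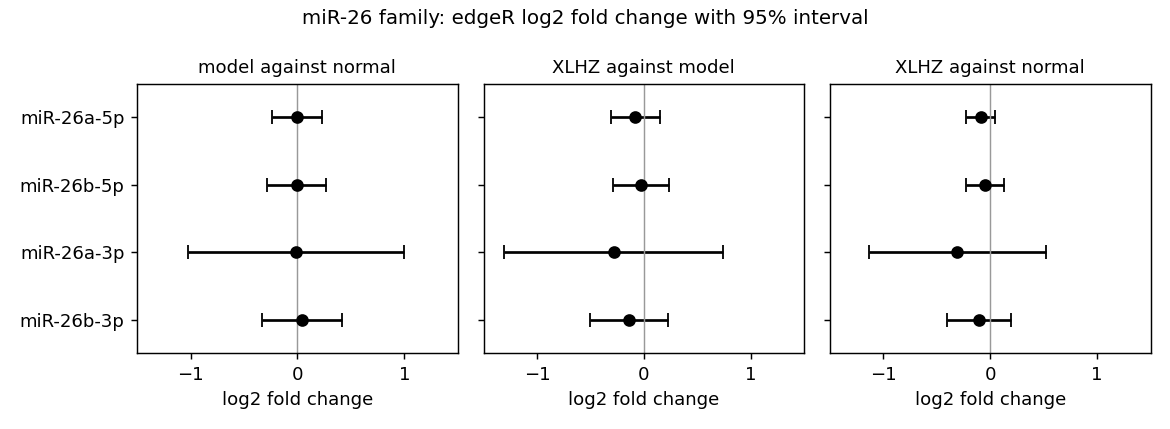
Log2 fold change (horizontal axis) of the 4 family members in each comparison, from edgeR with TMM factors, with bars giving 95% intervals. Every interval includes 0, and those of miR-26a-3p, with 5 to 25 counts a library, are the widest of the 4.

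In mean TMM-scaled level, miR-26a-5p was nearly equal in model and normal libraries (57164.1 and 57159.6) and lower in XLHZ libraries (54829.7). No groups in that order differed beyond their spread. The order of library shares was another one. The share averaged 5.74% ± 0.559 in XLHZ, 5.33% ± 0.513 in model and 5.86% ± 0.245 in normal libraries (SD, n = 4 each). Model against normal gave a difference of -0.526 percentage points (exact two-sided permutation test, p = 0.0857, adjusted p = 0.789 over 12 such tests), and 3 of 4 model libraries lay below every normal library. The smallest p that 4 libraries against 4 can give is 0.0286. XLHZ against model gave 0.403 points (exact permutation p = 0.429) and XLHZ against normal -0.124 points (exact permutation p = 0.657), both with an adjusted p of 0.789.

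The total behind a share includes miR-143-3p, the most abundant miRNA of every library. miR-143-3p took its lowest share, 9.39%, in XLHZ library 1, where miR-26a-5p took 6.49%, and its highest, 29.2%, in model library 2, where miR-26a-5p took 5.45%. The 2 measures did not keep one order, since miR-26a-5p also took 5.45% in model library 4, with miR-143-3p at 14.1%, and 4.61% in model library 3, with miR-143-3p at 25.1%. Of the counts other than miR-143-3p, miR-26a-5p made up 6.80% ± 0.306 in XLHZ, 6.84% ± 0.723 in model and 6.98% ± 0.226 in normal libraries (SD, n = 4 each). The difference between XLHZ and model libraries then turned to -0.041 percentage points. Model library 2 held the highest value on this scale, 7.70%, and model library 3 still the lowest, 6.16%.

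**Figure D3:**
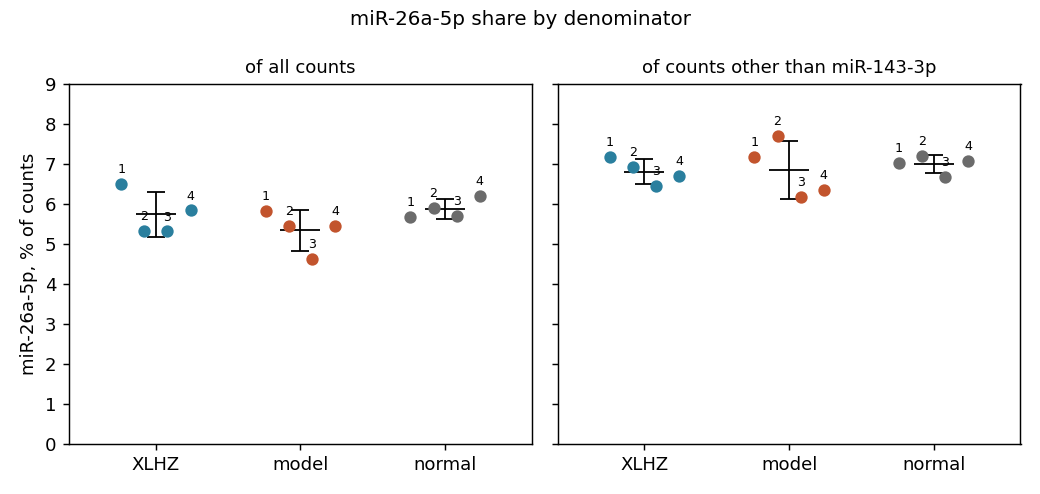
miR-26a-5p as a percentage of all counts (left) and of counts other than miR-143-3p (right) in each library, on a shared axis from 0, with points numbered by replicate and bars giving mean ± SD of 4 libraries per group. Without miR-143-3p the group means lie at 6.80%, 6.84% and 6.98%, and the model points spread from 6.16% to 7.70%.

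The balance of the guides does not depend on any scaling between libraries. Per 100 counts of miR-26a-5p there were 10.50, 10.96, 11.73 and 10.26 counts of miR-26b-5p in XLHZ libraries 1 to 4. In model libraries 1 to 4 there were 10.22, 10.19, 9.36 and 12.48, and in normal libraries 1 to 4 there were 10.86, 10.98, 10.17 and 10.00. Model libraries 3 and 4 held the lowest and the highest ratio of all 12 libraries. The ratio averaged 10.9 ± 0.647 in XLHZ, 10.6 ± 1.34 in model and 10.5 ± 0.491 in normal libraries (SD, n = 4 each), and the exact permutation p was 0.886 for model against normal, 0.657 for XLHZ against model and 0.429 for XLHZ against normal. For the arm ratio of Mir26b the exact permutation p was 0.6, 0.314 and 0.571 in the same order. For the share of miR-26b-5p, which averaged 0.621% ± 0.0432 in XLHZ, 0.566% ± 0.103 in model and 0.615% ± 0.0285 in normal libraries, it was 0.486, 0.371 and 0.800. Over the 12 exact permutation tests the adjusted p lay between 0.789 and 0.886.

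**Figure D4:**
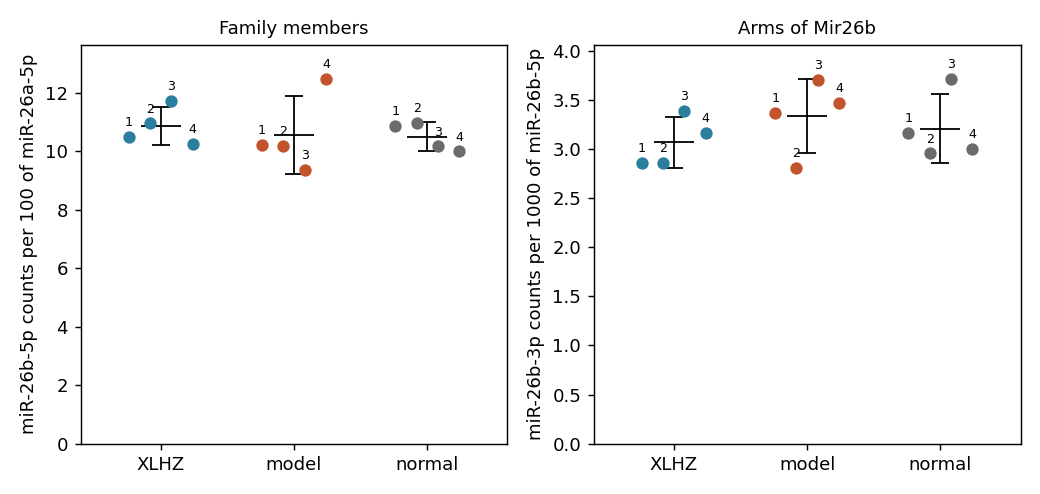
Counts of miR-26b-5p per 100 counts of miR-26a-5p (left) and counts of miR-26b-3p per 1000 counts of miR-26b-5p (right) in each library, on axes from 0, with points numbered by replicate and bars giving mean ± SD of 4 libraries per group. Model libraries 3 and 4 hold the extremes of the left panel, 9.36 and 12.5.

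Model library 3 was the lowest of the 12 on 1 of the 2 lists of epithelial markers. Summed CPM of the gastric and endocrine epithelium markers miR-375-3p, miR-148a-3p and miR-7a-5p was 9067.48 in model library 3, against 17491.7 to 25262.9 in the other model libraries and 24443.8 to 34015.8 in normal ones. All 3 of these markers were detected in every group, with group means of 25647.2 in XLHZ, 18852 in model and 29359.4 in normal libraries. On the other list, the miR-200 family, model library 3 summed to 69608.2 CPM, and the lowest was model library 2 with 44980.0 CPM. The 4 smooth muscle arms of miR-143 and miR-145 summed to 110976 to 263624 CPM in XLHZ, 161075 to 337102 in model and 142322 to 219317 in normal libraries. The part of either epithelial list in the family's values was not tested. A smooth muscle score was used only as a covariate in an alternative fit of each comparison, in which no member was called. Without model libraries 2 and 3 the log2 fold changes in model against normal mucosa were -0.069 for miR-26a-5p and 0.033 for miR-26b-5p, and in XLHZ against model mucosa -0.015 and -0.067.

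Both guides were among the steadier of the abundant miRNAs, though not the steadiest at the level of miR-26a-5p. Among the 77 miRNAs with a mean of at least 1000 TMM-scaled CPM, the SD of the log2 level over the 12 libraries was 0.10 for miR-26b-5p and for miR-26a-5p, the eighth and the ninth lowest, against a median of 0.25. The lowest SD was that of let-7f-5p (0.063), and miR-143-3p had 0.61. With let-7f-5p, the next in level below miR-26a-5p were let-7a-5p (0.067) and let-7c-5p (0.095), each with a lower SD than miR-26a-5p. Within groups the pooled SD was 0.11 for either guide, with a median of 0.24 over the 77. On library totals alone miR-26a-5p was sixth and miR-26b-5p fourteenth lowest. TMM factors are set so that most miRNAs vary little, and these ranks are a description with no test.

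**Figure D5:**
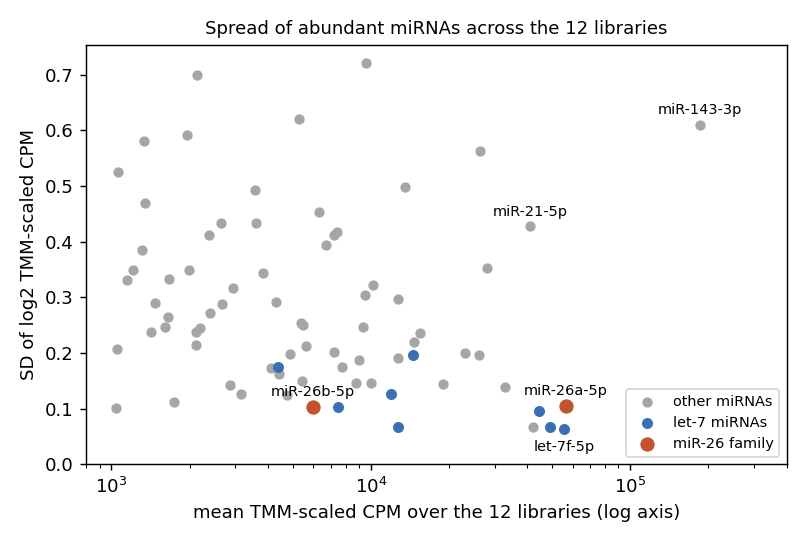
SD of log2 TMM-scaled CPM over the 12 libraries (vertical axis) against mean TMM-scaled CPM (horizontal log axis) for the 77 miRNAs with a mean of at least 1000. The miR-26 guides lie near 0.10, among the let-7 miRNAs, and miR-143-3p lies at 0.61.

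The profiles nearest to each guide were ranked by Pearson correlation of log2 TMM-scaled CPM over the 12 libraries, among 147 other miRNAs with a mean of at least 100 CPM. For miR-26a-5p these were miR-125b-5p (r = 0.87), miR-22-3p (0.79), miR-24-3p (0.79), miR-10a-5p (0.73) and let-7e-5p (0.72). For miR-26b-5p they were miR-27b-3p (0.81), miR-30a-5p (0.79), miR-30a-3p (0.75), miR-127-3p (0.68) and miR-152-3p (0.65). The guides thus had no near profile in common among their first 5, and the correlation between them was 0.44, which placed miR-26b-5p at rank 29 for miR-26a-5p. The libraries share their scaling factors and their composition, so these are descriptions over 12 points.

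Other miRNAs known to repress Ezh2 were examined beside the family. Of miR-101a-3p, miR-101b-3p, miR-138-5p, miR-124-3p and miR-214-3p, all 5 were tested and 0 were called in each comparison by edgeR, DESeq2 or limma-trend. At an unadjusted p under 0.05 edgeR had 1, 0 and 0 of them in model against normal, XLHZ against model and XLHZ against normal mucosa, the 1 being miR-124-3p, a neuronal miRNA, with 6.57 ± 2.98 TMM-scaled CPM in model and 2.89 ± 0.668 in normal libraries (adjusted p = 0.498). Over all miRNAs tested edgeR had 29 of 403, 17 of 402 and 35 of 401 at that threshold. Their median log2 fold change was 0.0051 in model against normal, -0.084 in XLHZ against model and -0.028 in XLHZ against normal mucosa, beside medians of -0.0072, 0.0057 and -0.0040 over all miRNAs tested. miR-101a-3p, the most abundant of them, averaged 2138.7 ± 296.3 TMM-scaled CPM in XLHZ, 2236.03 ± 582.1 in model and 2222.75 ± 296.2 in normal libraries. miR-101b-3p averaged 464.1 ± 25.3, 455.5 ± 107.9 and 463.1 ± 57.3 in the same order of groups. miR-138-5p, also known from neurons, had 115.0 ± 41.1 in XLHZ, 203.5 ± 152.0 in model and 108.3 ± 27.6 in normal libraries, and its adjusted p was 0.642 in model against normal and 0.729 in XLHZ against model mucosa (edgeR). miR-214-3p, known from mesenchymal cells, had 23.6 ± 6.04 in XLHZ, 24.7 ± 8.71 in model and 30.8 ± 11.4 in normal libraries.

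The 9 let-7 guide strands likewise had 0 calls in each comparison by edgeR, DESeq2 or limma-trend. Their mean levels over the 12 libraries ran from 829.0 to 55673.8 TMM-scaled CPM, so only some stood near miR-26a-5p. At an unadjusted p under 0.05 edgeR had 1, 0 and 2 of the 9 in the same order of comparisons, beside 7.2%, 4.23% and 8.73% of all miRNAs tested. Their median log2 fold change was -0.073 in model against normal, -0.017 in XLHZ against model and -0.13 in XLHZ against normal mucosa. let-7f-5p averaged 55551.8 ± 2774.3 TMM-scaled CPM in XLHZ, 54403.5 ± 1871.5 in model and 57066 ± 2413.4 in normal libraries. let-7b-5p lay farthest from 0 in model against normal mucosa, at -0.30 (edgeR adjusted p = 0.610, SE 0.13), and it did not pass.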

How the data were processed

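Per the labels' protocols, RNA with integrity numbers above 7.0 went into QIAseq small RNA libraries for Illumina sequencing. The submitters' processing notes name Bowtie and DESeq with no version. Not given in the sources used here were the genome build, the counting rule and whether reads or molecular identifiers were counted. Deposited by the authors were 2 tables of raw counts, whole numbers for each mature miRNA. The authors' deposited CPM columns equal count over column total and were used to check that alone. The tables held 639 and 632 miRNAs, 622 in common, with model counts identical for 621. The exception, miR-20b-3p, was left out where tables were joined, and miRNAs in 1 table alone (at most 3 counts) were taken as 0 in the other.

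Each comparison was fitted on its 8 libraries with edgeR 4.0.16 (quasi-likelihood test, TMM factors, low-count filter filterByExpr at a minimum of 10) in R 4.3.3. Benjamini-Hochberg adjustment ran over every miRNA tested, and the threshold was 0.05. The SE is the log2 fold change divided by the root of F, and 95% intervals use the moderated degrees of freedom. Printed levels use TMM factors over all 12 libraries. Library shares and ratios were compared by exact permutation. Log2 levels for spread and correlation used a pseudocount of 0.5. Named miRNAs were the family, the 5 most abundant, the 5 nearest profiles of each guide, comparisons' calls where 5 or fewer, and up to 4 abundant members of the Ezh2 and let-7 lists; let-7b-5p and miR-124-3p were named after their values were seen. Members and lists were chosen with earlier results of these data known. Alternatives were other scalings, filters and tools (DESeq2 1.42.0, limma 3.58.1), a 12-library fit, the replicate number as a block, a smooth muscle covariate and libraries left out. The procedure was also run on simulated counts with planted changes far larger than the values of the guides. That run does not bear on differences as small as theirs. Libraries of a group differed by more than counting noise (lowest chi-square over its degrees of freedom: 192).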

Additional observations from a re-analysis of the deposited data

Results flagged for a closer look

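Of 27 groups of 4 libraries examined (levels of the 4 members and 5 shares or ratios, in 3 groups), 1 held a library far from the others, and chance flags about 1 group in 20. miR-26b-3p stood at 20.8 TMM-scaled CPM in XLHZ library 3, against 17.1 to 17.5 in the other XLHZ libraries. Its gap to the nearest library was 0.888 of the group's range, above Dixon's 95% critical value for 4 libraries. In raw counts this library had 224, with an exact 95% Poisson interval of 196 to 255, against 177 to 206 in the others. Its interval overlaps those of the other 3 XLHZ libraries.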

How the results depend on the processing

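No member of the family was called in any of the 62 fits over the 3 comparisons, and the smallest unadjusted p was 0.0921 (adjusted p = 0.515, with the replicate block). Because the values lie near 0, their signs turned often. In model against normal mucosa miR-26a-5p turned positive with RLE factors (0.028), upper-quartile factors (0.044), library sizes without the 5 most abundant miRNAs (0.041), DESeq2 (0.028), no count filter (0.0013), a filter of 50 counts in 4 libraries (0.00036) and 1 fit of 12 libraries (0.010). miR-26b-5p did so with RLE factors (0.024), upper-quartile factors (0.045), sizes without those 5 (0.041), DESeq2 (0.024), 1 fit of 12 libraries (0.0058) and without model libraries 2 and 3 (0.033), where the difference of its share was 0.0221 points. miR-26a-3p turned to 0.012 with RLE, 0.058 with upper quartiles, 0.035 with sizes without those 5, 0.0094 with DESeq2, 0.0031 in 1 fit, 0.44 with a covariate for the smooth muscle score and 0.48 without model libraries 2 and 3, and miR-26b-3p to -0.064 on library totals. In XLHZ against model mucosa library totals turned miR-26a-5p to 0.11, miR-26b-5p to 0.14 and miR-26b-3p to 0.018, the covariate turned miR-26a-5p to 3.9e-05 and no count filter turned miR-26b-5p to 0.012. The miR-26a-5p share differed by -0.0413 points of counts other than miR-143-3p and -0.0331 of counts other than the 5 most abundant. Without model libraries 2 and 3 the miR-26b-5p share differed by -0.0162 points and the ratio of the guides by -0.488. In XLHZ against normal mucosa miR-26b-5p turned to 0.035 with upper quartiles and 0.014 on library totals, and its share to -0.00622 points of counts other than the 5 most abundant. The cause of these turns was not tested.

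Leaving out 1 library at a time, in model against normal mucosa, log2 fold changes ran from -0.070 to 0.065 for miR-26a-5p, -0.057 to 0.11 for miR-26b-5p and -0.39 to 0.28 for miR-26a-3p, and the ratio difference from -0.582 to 0.457. In XLHZ against model mucosa they ran from -0.12 to 0.023 for miR-26b-5p and -0.56 to 0.11 for miR-26a-3p, and the ratio difference from -0.101 to 0.938. In XLHZ against normal mucosa they ran from -0.072 to 0.0047 for miR-26b-5p, share differences from -0.375 to 0.0204 points for miR-26a-5p and -0.0141 to 0.0186 for miR-26b-5p, and the arm ratio difference from -0.246 to 0.0291.

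Calls over all miRNAs in model against normal mucosa numbered 1, but 2 with upper quartiles, library totals, sizes without the 5 most abundant or at least 50 counts in 4 libraries, 3 with no filter, 4 in 1 fit, 7 with DESeq2 and 1 to 4 without 1 library (4 without model library 4). The 1 call of XLHZ against model mucosa became 0 with the covariate and without model libraries 2 and 3, and 0 or 1 without 1 library (0 without any 1 model library or XLHZ library 1 or 4). The 6 of XLHZ against normal mucosa became 2 in 1 fit and 4 to 7 without 1 library. With the replicate number as a block the counts were 1, 1 and 5, and miR-26a-5p had -0.010, -0.072 and -0.090. Same-numbered libraries did not deviate together throughout (r from -0.32 to 0.43), so the numbers do not show pairs. Depth limits miR-26a-3p most, with 5 to 25 counts a library, and also miR-26b-3p and its arm ratio, with 171 to 251.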
